A study of Mus musculus with 27 samples.

Results

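The H3K4 methyltransferase genes *Kmt2a*, *Kmt2b*, *Kmt2c*, *Kmt2d*, *Setd1a* and *Setd1b*, together with *Kdm6a*, *Ncoa6*, *Paxip1* and *Wdr5*, which encode partners of these enzymes, were examined for H3K4 methylation at their own loci in E11.5 mouse hearts. These 10 genes of 22359 protein-coding genes were chosen by name. Their regions were all those of the merged H3K4me1, H3K4me2 and H3K4me3 list that lay in the gene body or within 5 kb of a transcription start site (TSS) of the gene, which gave 104 of 358833 merged regions. No region was counted for more than 1 of the genes. GENCODE vM1, the annotation used, lists *Kmt2a* as *Mll1*, *Kmt2b* as *Wbp7*, *Kmt2c* as *Mll3* and *Kmt2d* as *Mll2*.

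Lysine 4 of histone H3 is methylated by a family of SET-domain enzymes, each working in a multi-subunit complex built on a shared core that includes WDR5. KMT2A and KMT2B act mainly at promoters of selected genes, SETD1A and SETD1B account for much of the trimethylation at active promoters, and KMT2C and KMT2D are the main enzymes of H3K4 monomethylation at enhancers. KMT2C and KMT2D share the partners KDM6A, an H3K27 demethylase also known as UTX, PAXIP1 (PTIP) and the nuclear receptor coactivator NCOA6. Mutations in *KMT2D* or *KDM6A* cause Kabuki syndrome, in which heart defects are common.

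To determine where H3K4 methylation depends on KMT2D, the study compared pooled whole hearts of control embryos (*Tnnt2::Cre; Kmt2d fl/+; mTmG/+*) and mutant embryos (*Tnnt2::Cre; Kmt2d fl/fl; mTmG/+*), both on C57BL/6. Cre recombinase driven by *Tnnt2* acts in the myocardium, so the other cells of a mutant heart keep *Kmt2d*, and the control hearts carry 1 floxed copy themselves. The mTmG allele, a reporter of Cre activity, and the Cre transgene were present in both genotypes. Each genotype had 3 pools of 30 hearts, which gave 24 heart libraries (input, H3K4me1, H3K4me2 and H3K4me3) among the 27 of the series. The other 3 libraries, KMT2D ChIP-Exo from cardiomyocytes derived from embryonic stem cells, were not used here.

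The values analysed were 3 deposited lists of chromosome, start and end. The merged list held every region called in any of the 3 marks and does not say which mark a region carries. Of its regions, 6699 (1.87%) were in the list of decreased H3K4me2 in mutant hearts and 2730 (0.761%) in the list of decreased H3K4me1. Each list pools the replicates and holds no read counts, so the depth behind a region is unknown, no difference could be set against the spread between pools, and no test was made. The deletion of *Kmt2d* cannot be checked in such lists. Whether a region counts as decreased was decided by the authors, and regions they did not list can also have changed. As a check of the tissue, all 7 heart muscle genes examined (*Tnnt2*, *Actc1*, *Myh6*, *Myh7*, *Nkx2-5*, *Gata4* and *Tbx5*) had a merged region over the main TSS, 12960 to 48800 bp wide. Genes of liver, pancreas and neurons had such a region in 5 of 8 cases, 160 to 2760 bp wide, and of the blood genes *Hbb-b1* had a region of 620 bp over its main TSS and *Gata1* 1 of 4140 bp over another of its starts. Genes of cells outside the myocardium, which keep *Kmt2d*, also carried regions over the main TSS. These were 5760 bp wide at *Tek* and 10240 bp at *Cdh5* (endocardium), and 12160 bp at *Wt1* and 7360 bp at *Tbx18* (epicardium). The endocardial gene *Pecam1* had none over its main TSS but 1 of 3880 bp over another of its starts. The main TSS of a gene was the most upstream start of its protein-coding transcripts.

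The sequence before the start sites is shown for 4 of the genes, since all 4 decreased regions at these genes lay over a TSS: for *Kmt2c* and *Kdm6a*, whose TSS regions were H3K4me2-decreased, and for *Kmt2d* and *Kmt2a*, whose TSS regions were not. Each line gives the 250 bases that end just before the main TSS, on the coding strand, with CpG dinucleotides in capitals, read from the NCBIM37 (mm9) genome. The windows are chr5:25004602-25004851 (minus strand) for *Kmt2c*, chrX:17739451-17739700 (plus strand) for *Kdm6a*, chr15:98701615-98701864 (minus strand) for *Kmt2d* and chr9:44689380-44689629 (minus strand) for *Kmt2a*. All 4 windows lay inside a merged region and overlapped 0 annotated exons.
Kmt2c: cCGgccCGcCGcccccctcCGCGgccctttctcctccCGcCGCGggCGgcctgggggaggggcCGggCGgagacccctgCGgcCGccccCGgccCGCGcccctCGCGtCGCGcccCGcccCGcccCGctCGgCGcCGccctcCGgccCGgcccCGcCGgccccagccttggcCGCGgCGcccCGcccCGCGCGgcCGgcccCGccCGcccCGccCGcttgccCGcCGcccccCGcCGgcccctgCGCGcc
Kdm6a: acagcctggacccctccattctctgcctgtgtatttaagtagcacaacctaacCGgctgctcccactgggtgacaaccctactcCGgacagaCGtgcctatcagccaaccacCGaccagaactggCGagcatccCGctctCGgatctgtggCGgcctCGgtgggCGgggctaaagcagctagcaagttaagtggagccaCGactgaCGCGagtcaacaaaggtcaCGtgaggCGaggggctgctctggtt
Kmt2d: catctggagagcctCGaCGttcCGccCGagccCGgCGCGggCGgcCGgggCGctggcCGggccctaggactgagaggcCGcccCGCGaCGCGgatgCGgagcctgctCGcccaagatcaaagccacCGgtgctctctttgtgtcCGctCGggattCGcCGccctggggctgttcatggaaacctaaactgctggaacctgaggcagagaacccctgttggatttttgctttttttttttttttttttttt
Kmt2a: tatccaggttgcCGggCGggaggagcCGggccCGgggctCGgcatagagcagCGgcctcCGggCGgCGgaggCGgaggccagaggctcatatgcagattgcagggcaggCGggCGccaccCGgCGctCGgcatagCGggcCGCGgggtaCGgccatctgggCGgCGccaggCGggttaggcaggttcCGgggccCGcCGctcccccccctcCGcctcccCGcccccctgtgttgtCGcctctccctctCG

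The *Kmt2c* window held 48 CpG and 91.6% G and C, the highest GC content of any of the 22359 coding genes over the same window. The *Kmt2a* window held 29 CpG, the *Kmt2d* window 23 and the *Kdm6a* window 15. The *Kmt2d* sequence ran into an unbroken stretch of T just before the annotated start.

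All 10 genes carried a merged region over the main TSS, as did 67.5% of coding genes. The regions were 4120 to 18220 bp wide, with a median of 5660 bp, and each was wider than the median of 3640 bp over the 15099 coding genes with a TSS region (quartiles 2350 and 5660 bp). At 4 of the 10 genes, or 40%, this region was in the H3K4me2-decreased list: *Kmt2c*, *Setd1b*, *Kdm6a* and *Paxip1*. Among all coding genes with a TSS region the share was 28.7%. The regions of *Kmt2a*, *Kmt2b*, *Kmt2d*, *Setd1a*, *Ncoa6* and *Wdr5* were not in that list. No gene of the 10 had an H3K4me1-decreased TSS region, against 0.649% of coding genes, so that a count of 0 among 10 was near the background.

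**Figure D1:**
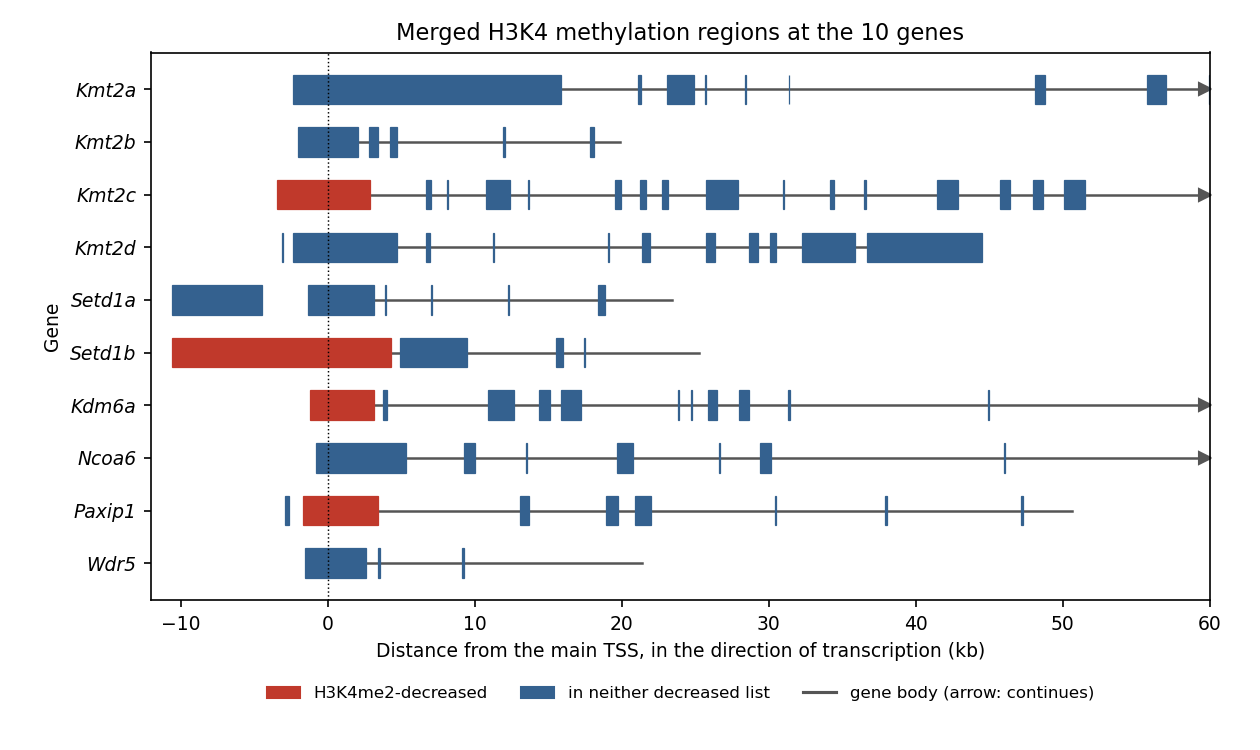
Merged H3K4 methylation regions at the 10 genes, drawn to scale by distance from the main TSS in the direction of transcription (kb); boxes are regions, red in the H3K4me2-decreased list and blue in neither decreased list, and lines are gene bodies, cut at the right edge for *Kmt2a*, *Kmt2c*, *Kdm6a* and *Ncoa6*. The 4 red boxes all lie over a start site, and every box away from the start sites is blue.

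The H3K4me2 call moved with the width of the region. Of coding genes with a TSS region under 500 bp, 0% had it in the H3K4me2-decreased list, and the share was 2.67% at 500 to 1000 bp, 9.98% at 1000 to 2000 bp, 26.9% at 2000 to 4000 bp, 36.2% at 4000 to 8000 bp and 46.4% at 8000 bp or more. In the class of 4000 to 8000 bp, 3 of 8 members were in the list (37.5%), next to 36.2% of 4896 coding genes. At 8000 bp or more, 1 of 2 members was in the list, next to 46.4% of 1831 genes. Against genes with TSS regions of like width, the share of members was thus near the background. Within the 10 genes the median width was 5740 bp for the 4 H3K4me2-decreased regions and 5340 bp for the other 6, and the former lay inside the range of the latter, since the widest region (*Kmt2a*) and the narrowest (*Kmt2b*) were both outside the list. The part of width in the calls was not tested.

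**Figure D2:**
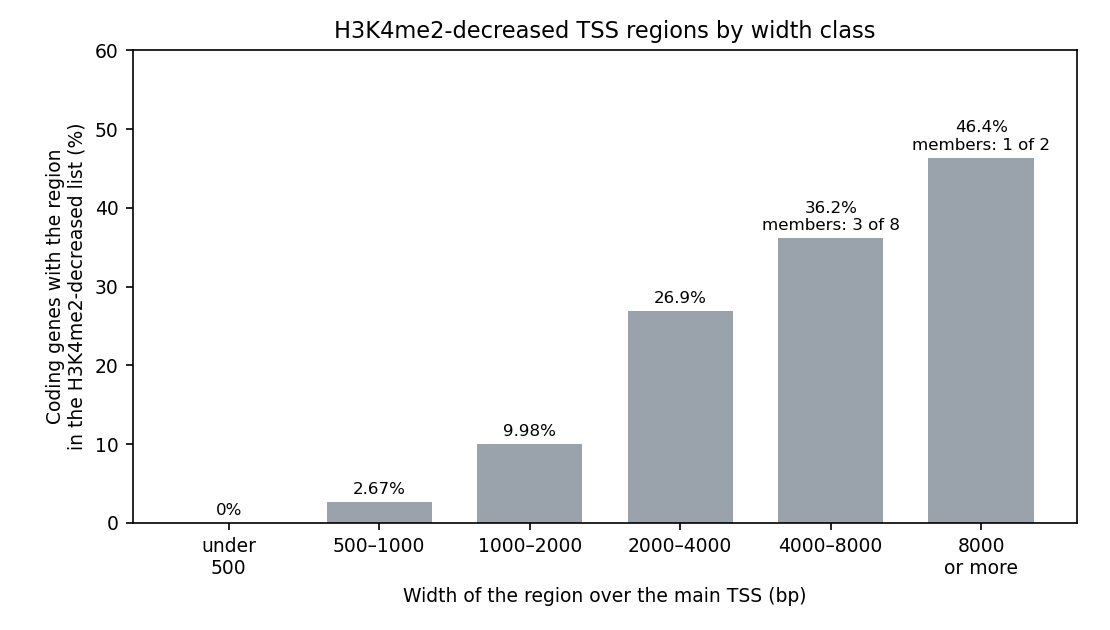
Share of coding genes (%, bars) whose region over the main TSS was in the H3K4me2-decreased list, by the width of that region (bp), with the number of members in the list printed above the classes that hold any. The bars climb from 0% to 46.4%, and members fall only in the upper 2 classes.

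*Kmt2d*, the deleted gene, and its closest paralog *Kmt2c* differed in the call. The *Kmt2c* TSS region, chr5:25001746-25008065, was 6320 bp wide, reached 3464 bp upstream and 2855 bp into the gene, and was H3K4me2-decreased. It also held the TSS of *4831440E17Rik*, a long intergenic non-coding RNA gene, so the call cannot be assigned to 1 of the genes. The *Kmt2d* TSS region, chr15:98696886-98703985, was 7100 bp wide, with 2371 bp upstream and 4728 bp downstream, and was in neither list. The wider region of the pair was therefore the uncalled *Kmt2d* region.

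The regions of this pair were spread differently. *Kmt2c*, a gene of 227 kb, had 35 regions, more than 94.7% of coding genes, of which 31 were intronic only and 26 were narrower than 500 bp. *Kmt2d*, a gene of 39.5 kb, had 11 regions, of which 8 overlapped exons and 1 was intronic only. The covered length, the summed width of all regions of a gene with any parts outside it, was 21160 bp for *Kmt2c* and 21200 bp for *Kmt2d*. At *Kmt2d* this sum included a region of 7800 bp that ran past the 3′ end of the gene, so the 2 sums do not compare the gene bodies alone. The TSS region made up 29.9% of the covered length at *Kmt2c* and 33.5% at *Kmt2d*. Outside the TSS, the widest *Kmt2c* region was an intronic one of 2180 bp that began 25716 bp inside the gene.

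*Kmt2d* had its widest region at the 3′ end and not at the start. This region, chr15:98657126-98664925, was 7800 bp wide, overlapped 2826 bp of annotated *Kmt2d* untranslated exon and held the TSS of the neighbour *Prkag1*, which encodes a regulatory subunit of the energy sensor AMPK. A further *Kmt2d* region of 3660 bp lay just upstream of it and overlapped 461 bp of coding exon. None of these was in a decreased list. The nearest H3K4me2-decreased region lay 7.75 kb upstream of the *Kmt2d* start, beyond the 5 kb window, and was the 3640 bp region over the TSS of *Rhebl1* (chr15:98709366-98713005). *Rhebl1*, which encodes a small GTPase, and *Prkag1* were named after their values were seen.

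KMT2A and KMT2B form a second pair, and neither TSS region was in a decreased list. The *Kmt2a* region, chr9:44673486-44691705, was 18220 bp wide, wider than the TSS regions of 98.7% of coding genes. It lay mostly inside the gene, with 15893 bp (87.2%) downstream of the start and 2326 bp upstream. The *Kmt2b* region, chr7:31371666-31375785, was 4120 bp wide and lay almost evenly about the start, with 2040 bp upstream and 2079 bp downstream. *Kmt2a* had 12 regions in a gene of 77.9 kb and *Kmt2b* 5 in a gene of 19.9 kb. At *Kmt2a*, 6 of these overlapped exons and 4 were intronic only. A further region of 660 bp lay over a downstream annotated start of *Kmt2a*, and at *Kmt2b* regions of 580 and 300 bp did likewise.

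*Setd1a* and *Setd1b*, which encode the trimethylating pair, also differed in the call. The *Setd1a* TSS region, chr7:134918826-134923345, was 4520 bp wide, held all 5 annotated *Setd1a* starts and was in neither list. A separate region of 6140 bp ended within 5 kb upstream of the start and held the TSS of *Orai3*, a calcium channel gene that was named after its values were seen. This region was not decreased either. The *Setd1b* TSS region, chr5:123581586-123596525, was 14940 bp wide and H3K4me2-decreased. Of this width 10616 bp lay upstream of the start, and only 28.9% lay downstream, the lowest downstream share of the 10 genes. The upstream stretch held the TSSs of the coding gene *Rhof* and of the transcript *AI480526*, so that the call belongs to a region shared by 3 genes. Of coding genes whose TSS region was 8000 bp or wider and held the TSSs of at least 2 coding genes, 52.1% (357 of 685 genes) had it in the H3K4me2-decreased list. The next *Setd1b* region, 4520 bp wide with 1209 bp of coding exon, began 4944 bp downstream of the start and was in neither list.

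**Figure D3:**
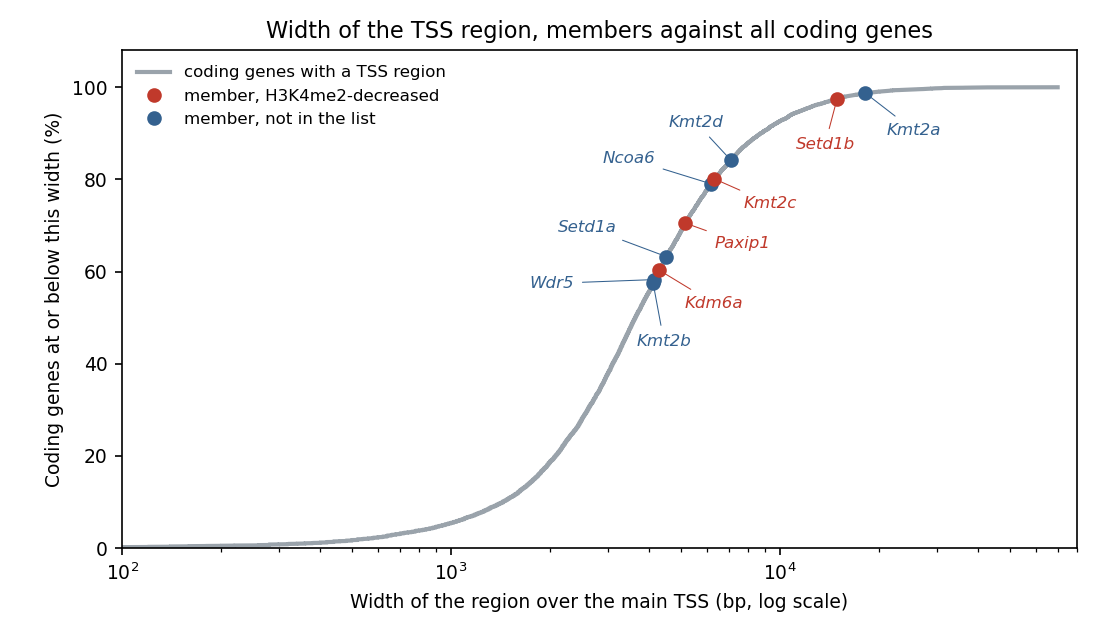
Cumulative share of the coding genes with a TSS region (%, grey line) by the width of that region (bp, log scale), with the 10 genes as points, red where the region was H3K4me2-decreased and blue where it was not. All points lie in the upper part of the curve, from *Kmt2b* at 4120 bp to *Kmt2a* at 18220 bp, and red points lie among blue ones along it.

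Of the 3 members that encode partners specific to the KMT2C and KMT2D complexes, *Kdm6a* and *Paxip1* had H3K4me2-decreased TSS regions and *Ncoa6* did not. The *Kdm6a* region, chrX:17738526-17742825, was 4300 bp wide with 1175 bp upstream and 3124 bp downstream. On the X chromosome the share of H3K4me2-decreased TSS regions was 16.9% (75 of 444 genes), below the 28.7% over all chromosomes, and for regions of 4000 to 8000 bp it was 27.9% (17 of 61). All 10 other *Kdm6a* regions were intronic, the widest 1800 bp, and none was decreased. They lay in the upstream part of the 117 kb gene, the farthest 44964 bp from the start.

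The *Paxip1* region, chr5:28114426-28119585, was 5160 bp wide and held no other TSS. PAXIP1 carries BRCT domains, which bind phosphorylated proteins, and also takes part in the DNA damage response. The 7 other *Paxip1* regions were 80 to 1060 bp wide and in neither list. The *Ncoa6* region, chr2:155294266-155300425, was 6160 bp wide, wider than the *Paxip1* and *Kdm6a* regions, and was not called. It lay almost wholly inside the gene, with 795 bp upstream and 5364 bp downstream. *Ncoa6* had 9 regions in 83.2 kb.

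WDR5, a WD-repeat protein of the core shared by the whole family, had the fewest regions. The *Wdr5* TSS region, chr2:27369106-27373265, was 4160 bp wide and in neither list, and it made up 94.1% of the 4420 bp covered at the gene. The other 2 *Wdr5* regions were 120 and 140 bp wide.

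Away from the main start sites the 10 genes had 94 regions, and 0 of them were in either decreased list. Over all 345314 merged regions without a coding main TSS, 0.865% were H3K4me2-decreased and 0.763% H3K4me1-decreased, so that a count of 0 in 94 was near the background. Of the 94 regions, 61 were intronic only, 27 overlapped exons, 3 lay over another TSS of the gene and 3 lay outside the gene. They were mostly narrow, with 59 (62.8%) under 500 bp and a median of 300 bp, next to 61.3% and 280 bp in the background. The narrowest width among the 94 was 60 bp, which 12 had. Only 5 were at least 2000 bp wide: the intronic *Kmt2c* region, both 3′ *Kmt2d* regions, the *Orai3* region at *Setd1a* and the second *Setd1b* region, all described above. Over all 104 regions, 4 (3.85%) were H3K4me2-decreased, next to 1.87% of the merged list, and 0 were H3K4me1-decreased, next to 0.761%. These overall shares do not compare like sets. Regions without a coding main TSS were 345314 of 358833 in the merged list and 94 of 104 here, and TSS regions were called more often. Each of the 4 decreased regions lay over a start site.

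Of the 10 genes, 8 had more regions than the median coding gene, all but *Wdr5* and *Setd1b*, and the genes were also longer. The median was 8.5 regions per gene for the members and 4 for all coding genes, and the median gene length was 45094 bp and 15427 bp. Per 100 kb of gene the order was the opposite, with a median of 15.6 regions for the members and 25.7 for coding genes. This value counts regions outside the gene near a TSS but is divided by gene length alone, which raises it for short genes. It therefore does not show that the longer member genes were sparsely marked. Among the 10 genes, *Kdm6a* had the fewest regions per 100 kb, 9.37, and *Kmt2d* the most, 27.8. The covered length had a median of 10750 bp for the members and 5640 bp for coding genes. Of the 46 annotated start positions of the 10 genes, 27 lay inside a merged region and 19 did not.

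**Figure D4:**
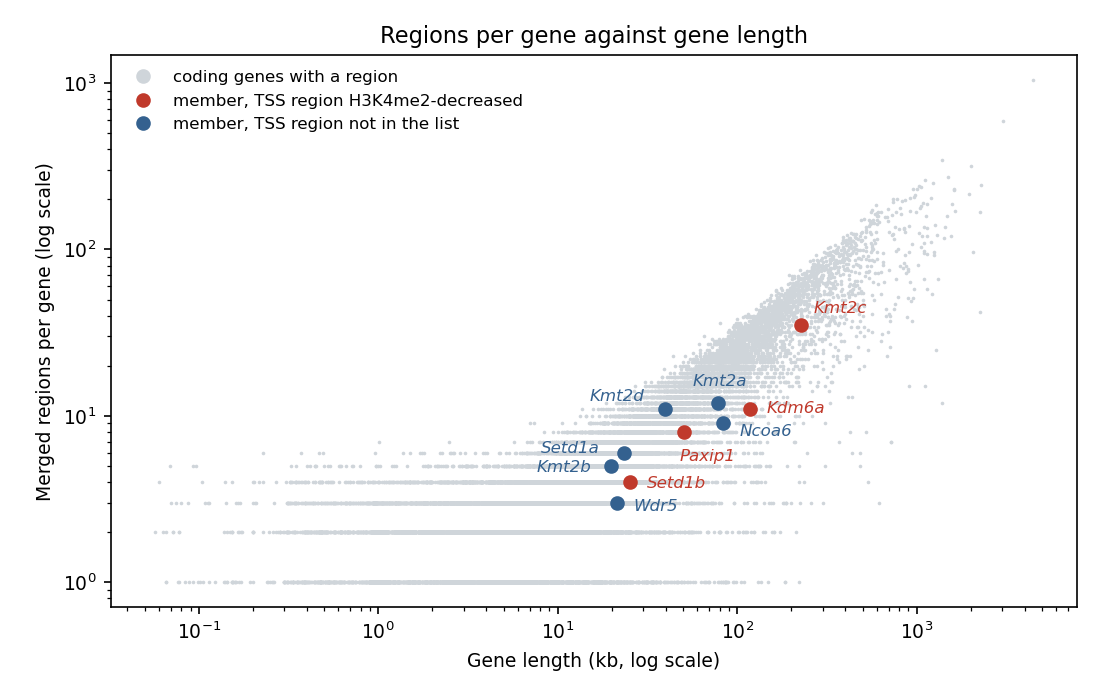
Merged regions per gene against gene length (kb), both on log scales, for coding genes with at least 1 region (grey) and for the 10 genes (red where the TSS region was H3K4me2-decreased, blue where it was not). The 10 genes follow the upward band of all genes, from *Wdr5* with 3 regions in 21.4 kb to *Kmt2c* with 35 in 227 kb.

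The promoter sequences of the 10 genes varied in CpG content. In the 250 bases before the main TSS the 10 genes held 14 to 48 CpG, with a median of 24.5, next to 14 for coding genes with a TSS region and 2 for those without. *Wdr5* had the fewest, 14, equal to the median of coding genes with a TSS region, and *Kmt2c* the most. For TSS regions of 4000 to 8000 bp, the class of 8 members, the coding medians were 20 with the H3K4me2 call and 16 without it. Of these 8 genes, *Wdr5* (14) and *Kdm6a* (15) lay below both medians, *Setd1a* (19) between them and the others above both. The observed over expected CpG ratio ranged from 0.53 (*Setd1b*) to 1.07 (*Ncoa6*), with a median of 0.86, next to 0.69 for coding genes with a TSS region. *Setd1b* and *Kdm6a* (0.68) lay below 0.69 and the other members above it. CpG counts overlapped between members with and without the H3K4me2 call. The H3K4me2-decreased members had 48 (*Kmt2c*), 28 (*Paxip1*), 15 (*Setd1b*) and 15 (*Kdm6a*) CpG, and the other members had 14 to 29. Over all coding genes with a TSS region the median was 17 in those called and 13 in those not called.

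Of the 4 short motifs searched on both strands, none of which contains another, GGGCGG, the core of the GC box, was found in 9 of the 10 windows, all except that of *Setd1b*. It occurred in 56.1% of coding genes with a TSS region and in 40.1% of all. Non-overlapping matches numbered 10 at *Kmt2c*, 4 each at *Kmt2a* and *Kmt2d* and 1 at *Kdm6a*, in the sequences printed above. CCAAT was found in 0 of the 10 windows (34.6% of coding genes with a TSS region), TATAAA in that of *Setd1a* only (6.74%) and CCGGAAG in 0 (11.4%). A match here is a description of the letters in this window and not a binding site.

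**Figure D5:**
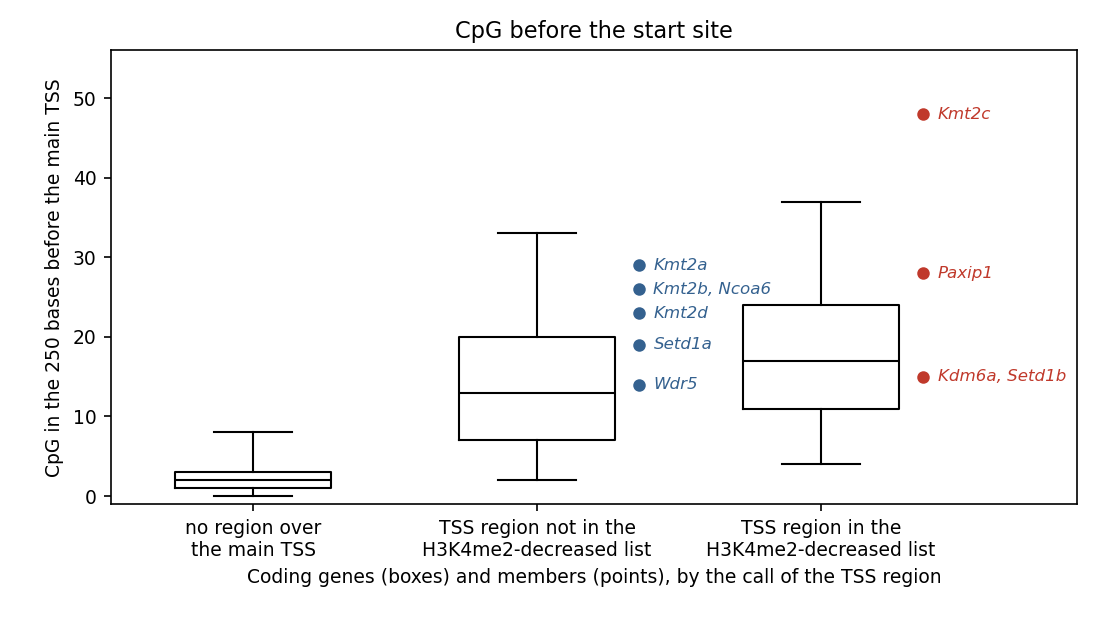
CpG dinucleotides in the 250 bases before the main TSS, for coding genes without a TSS region, with one outside the H3K4me2-decreased list and with one inside it; boxes show the quartiles and median over genes, whiskers the 5th and 95th percentiles, and points the 10 genes. Genes of the same call and the same count share a point. The blue points (6 genes, 14 to 29) fall inside the range of the red ones (4 genes, 15 to 48) but for *Wdr5*.

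Genes of related function were counted from lists. Among 12 further subunits of these complexes, 10 had a region over the main TSS and 4 of these were H3K4me2-decreased: *Psip1* (4280 bp), which encodes a chromatin tether of KMT2A, *Hcfc2* (5820 bp), and *Wdr82* (6820 bp) and *Bod1* (3440 bp), partners of the SETD1 complexes. The core subunits *Ash2l* and *Dpy30* had no region over the most upstream start, but each had an H3K4me2-decreased region over another start, 3340 and 4000 bp wide. *Rbbp5*, *Men1*, *Hcfc1*, *Cxxc1*, *Pagr1a* and *Bod1l* had TSS regions that were not in the list. *Pagr1a*, which encodes the PA1 subunit of the KMT2C and KMT2D complexes, is listed as *2900092E17Rik* in the annotation and shared a region with *Maz*, *Mvp*, *Prrt2* and *Gm20418*.

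Among 6 other genes whose proteins have been reported to methylate or bind H3K4, all 4 with a region over the main TSS had it in the H3K4me2-decreased list: *Kmt2e* (30260 bp, shared with *5031425E22Rik*), *Smyd2* (10200 bp), *Setd7* (3940 bp) and *Smyd3* (1960 bp). *Smyd1*, a gene of heart and skeletal muscle, had an H3K4me2-decreased region of 5940 bp over another of its starts, and *Ash1l* had none over any start. Of 6 H3K4 demethylase genes, *Kdm5c* (4100 bp), *Kdm1a* (3320 bp) and *Kdm1b* (2920 bp, shared with *Tpmt*) were H3K4me2-decreased at the TSS, and *Kdm5a*, *Kdm5b* and *Kdm5d* were not. The *Kdm6a* paralogs *Kdm6b* and *Uty*, unlike *Kdm6a*, were not in the list at the TSS. *Kdm6b* and *Kdm5b* each had 1 H3K4me2-decreased region that lay over none of their starts. Over these 26 genes, 22 had a region over the main TSS, of which 11 (50%) were H3K4me2-decreased and 0 H3K4me1-decreased, next to 28.7% and 0.649% of coding genes. The median width of these 22 regions was 4180 bp, next to 3640 bp over coding genes with a TSS region. The H3K4me2 call moved with width, and these shares were not compared at like width. No test was made of them.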

How the data were processed

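H3K4me1, H3K4me2 and H3K4me3 ChIP-Seq and input libraries were made from 3 pools per genotype. The submitters' processing notes name CASAVA 1.8.2, FastQC, Bowtie, Bowtie2 and SAMtools and the build mm9. The authors called regions, merged them over replicates and marks, and deposited the merged list and the lists of decreased H3K4me1 and H3K4me2. The peak caller, the test and the threshold of each list are not given in the deposited files. The study's text gives a false discovery rate cut-off for both decreased lists. Its count of H3K4me1-decreased regions equals that of the deposited list. The deposited list of decreased H3K4me2 holds more regions than the study's text gives, for a reason not stated in the sources used here. The lists used here hold coordinates alone, on a grid of 20 bp, so wide and narrow regions rest on unknown depth. In all 21 chromosomes the last region ended within the NCBIM37 length.

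Regions were assigned to genes of GENCODE vM1 (Python 3.11.15, numpy 2.4.6, pandas 2.3.3, matplotlib 3.10.9), and a region counted as decreased when its coordinates were identical to those of a listed region. The assignment was tested on simulated regions. The member genes and the gene lists were chosen with earlier results of these data known. All members were named. Genes of the related lists were named with values where the main TSS region was decreased or missing, as were genes with a TSS in a member's TSS region. The other genes of these lists were named without widths, and the coding genes that share their regions were named after seeing them. Sequences were read from NCBIM37. Alternatives varied the window, the minimum width, the match, the transcripts and the TSS used.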

Additional observations from a re-analysis of the deposited data

How the results depend on the processing

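Of 22 alternative values over 6 results, 20 stayed within 1.5 times the reported value. Some of these could not move, since all 10 genes already had a TSS region before looser definitions were tried. For the H3K4me1 count a ratio to 0 has no value. With only regions of at least 500 bp counted, the 10 genes had 45 regions in place of 104, because narrow regions were left out by construction, while the H3K4me2-decreased count stayed at 4. With a window of 1 kb the genes had 101 regions, and with 10 kb they had 115, of which 5 were H3K4me2-decreased, the added one being the *Rhebl1* region upstream of *Kmt2d*. The count of H3K4me1-decreased regions was 0 in the alternatives that were run on it. Alternatives chosen after seeing the data left out genes that share their TSS region. Without those that share it with another protein-coding gene (*Setd1b*), 3 of 9 genes were H3K4me2-decreased. The share was 26.1% of coding genes whose TSS region holds the TSS of 1 protein-coding gene. Without those that share it with any annotated gene (*Setd1b* and *Kmt2c*), 2 of 8 were. This count and the 45 regions were the 2 values beyond 1.5 times. The 4 of 10 genes reported thus rest in part on regions shared with other genes. No paired analysis was possible because the results come from no test, and the deposited lists carry no replicate columns. Leaving out each replicate in turn was not run, for the same lack of replicate columns. The depth of each region limits what the authors were able to call, and it is unknown here.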

Other observations

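The distance from each main TSS to the nearest decreased region was measured without regard to the 5 kb window. For H3K4me2 the median was 15890 bp over the 10 genes, with *Kmt2c*, *Setd1b*, *Kdm6a* and *Paxip1* at 0, next to 37580 bp over coding genes with a TSS region and 65761 bp over all coding genes. The values at 0 are the TSS calls already given, so this median is not a separate result. No background was formed for genes without such a call. For the genes whose own TSS region was not called, the nearest H3K4me2-decreased region was over the TSS of *Rhebl1* (7.75 kb from *Kmt2d*), over *Lin37* (28.2 kb from *Kmt2b*), over *Atp5l* (37.7 kb from *Kmt2a*), over *Ggt7* (39.2 kb from *Ncoa6*), over *Stx4a* (64.1 kb from *Setd1a*) and 24.0 kb from *Wdr5*. These neighbours were named after their values were seen.

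For H3K4me1 the nearest decreased region lay far from all 10 starts, from 117 kb (*Wdr5*, overlapping *Vav2*) and 155 kb (*Ncoa6*, over the TSS of the myosin heavy chain gene *Myh7b*) to 2610 kb (*Paxip1*) and 3500 kb (*Kdm6a*). The median over the 10 genes was 256282 bp, next to 238979 bp over coding genes with a TSS region. The nearest one to *Kmt2a*, 379 kb away, was a region of 20640 bp over the TSS of *Bcl9l*, which encodes a coactivator of Wnt signalling.

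In the related lists, H3K4me1-decreased regions occurred in the bodies or start-site windows of *Kmt2e*, *Smyd1*, *Smyd2* and *Smyd3*, 1 region each, among 365 regions of the 26 genes, and 0.761% of all merged regions were in that list. The *Smyd3* count rests on 173 regions.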
